A study of Mus musculus with 2 samples.

Results

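Smooth muscle contractile genes were followed in the hearts of mice that lack Med1, a subunit of the Mediator complex, in their cardiomyocytes. The 10 genes are Cnn1, Acta2, Myh11, Tagln, Smtn, Lmod1, Mylk, Myocd, Cald1 and Synpo2, out of 22882 gene symbols in the data. They were picked by name, as genes of the smooth muscle contractile apparatus and its control, and were chosen on the FPKM of the same 2 libraries. Their differences between the genotypes are therefore given as a description. The control library holds heart RNA of 5 Med1fl/fl mice, in which both Med1 alleles carry loxP sites. The other library holds heart RNA of 5 csMed1-/- mice, which carry the same floxed alleles together with a Cre transgene driven by the α-myosin heavy chain promoter, so that Med1 is deleted in cardiomyocytes and is left intact in smooth muscle cells, fibroblasts and endothelium. All mice were 23 days old, untreated, of mixed sex and on the C57BL6/J background, and animals with the Cre transgene alone were not analysed here. With a single pooled library on either side there is no replicate, and no gene could be tested.

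Contraction of smooth muscle is switched on from the myosin side. Calcium bound to calmodulin activates myosin light chain kinase, the kinase phosphorylates the regulatory light chain of myosin, and myosin then pulls on filaments of smooth muscle α-actin that carry tropomyosin, caldesmon, calponin and transgelin. Many of these genes are read through CArG boxes, the binding sites of serum response factor (SRF), with myocardin and its relatives as coactivators. In the adult heart the vessel wall is the main home of the program, but fetal cardiomyocytes and activated fibroblasts are also known to express parts of it, and myocardin, smoothelin and Synpo2 are expressed in striated muscle as well.

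Med1 itself stood at 3.38 FPKM in Med1fl/fl and at 0.412 in csMed1-/- heart (log2 ratio -3.04). FPKM are fragments counted per length of transcript and per size of the library, and each change below is the plain ratio of csMed1-/- to Med1fl/fl FPKM. Genes with a value other than 0 in each library and with at least 1 FPKM in one of the pools were compared, 10489 in all, and their log2 ratios had a median of -0.07 and quartiles of -0.72 and 0.55. Of these genes 31.5% differed by more than 2-fold, 13.6% being higher and 18.0% lower in csMed1-/- heart. Read counts were not used here and the absolute depth is unknown. The most frequent ratio among the lowest values, shared by 86 of 2461 rows, gives a depth ratio of 1.38, csMed1-/- over Med1fl/fl. That holds only if FPKM were scaled by library size, which is not known. In pooled whole-heart RNA, fewer cells of a type and less RNA per cell cannot be told apart.

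The smooth muscle contractile genes did not shift in one direction. Of the 10 genes 9 could be compared, and 2 of them, Cnn1 and Tagln, were higher by more than 2-fold in csMed1-/- heart, where 13.6% of all genes were. A further 5, Synpo2, Smtn, Mylk, Myh11 and Myocd, were lower by more than 2-fold, where 18.0% of all genes were. Acta2 and Cald1 lay within 2-fold, and Lmod1 was below 1 FPKM in both libraries. The median log2 ratio of the 9 genes was -1.03, against -0.07 for all genes, and their range ran from -1.97 for Synpo2 to 7.17 for Cnn1. Since the genes were chosen on this contrast, nothing is read from these shares. The genes next to the 2-fold line were Myocd (-1.03), Myh11 (-1.04) and Mylk (-1.11) just beyond it and Cald1 (0.98) and Acta2 (-0.89) just within it. When the libraries were scaled to equal summed FPKM all of them but Acta2 crossed the line. That scaling moved the median of all genes from -0.07 to 0.05. Cnn1 and Tagln on the higher side, and Smtn and Synpo2 on the lower side, stayed past 2-fold under every scaling and pseudocount tried.

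**Figure D1:**
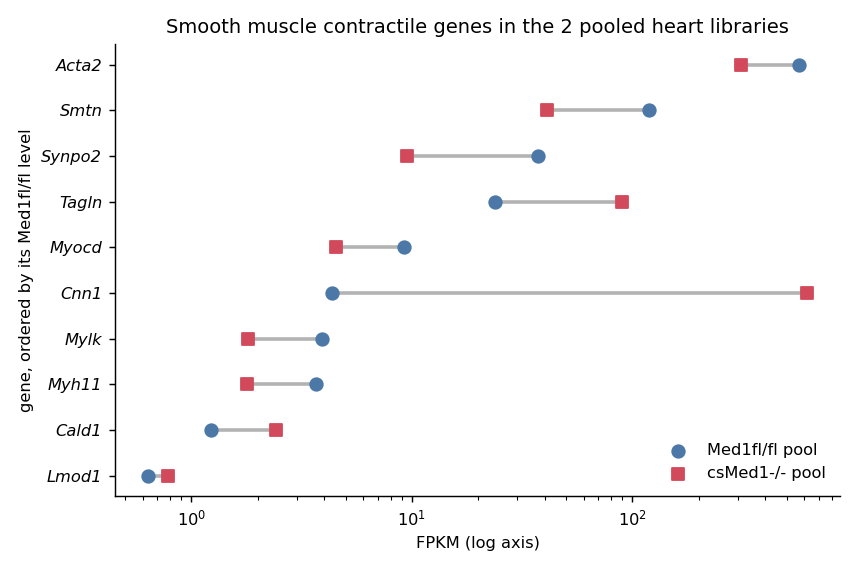
FPKM of the 10 smooth muscle contractile genes (log axis) in the Med1fl/fl pool (circles) and the csMed1-/- pool (squares), 1 library per genotype, ordered by the Med1fl/fl level. Cnn1 crosses the plot from 4.32 to 622 FPKM, Tagln moves the same way over a shorter distance, and most of the other genes move to lower values.

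Cnn1 encodes calponin 1, which binds actin filaments in smooth muscle and slows the myosin ATPase, and is a marker of differentiated smooth muscle. It lies on the plus strand of chromosome 9 from 22099216 to 22109630 (GENCODE M21 annotation of GRCm38, the assembly also named mm10), and its longest coding transcript has 7 exons and 2381 bases. Cnn1 had 4.32 FPKM in the Med1fl/fl library and 622 FPKM in the csMed1-/- library, a ratio of 144 and a log2 ratio of 7.17. By level it thus went from place 6892 to place 221 among all gene symbols. Its ratio ranked 2 among the 10489 genes compared, behind 4833412C05Rik, which went from 0.179 to 37.1 FPKM. Among the 1039 genes compared that reached 100 FPKM in csMed1-/- heart, Cnn1 had the highest ratio, and the next was that of Wisp2, a secreted CCN family protein, at a log2 ratio of 5.72. Adding a pseudocount of 1 FPKM to both values left the log2 ratio of Cnn1 at 6.87, the lowest value over the alternatives tried. None of the 2332 stretches of 50 bases in its longest coding transcript, the length of the reads, occurs unchanged in an annotated transcript of another gene. Near matches were not counted.

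The genes around Cnn1 on the chromosome had smaller ratios, of both signs. Elof1, whose nearest end is 3765 bases away, had 60.7 FPKM in Med1fl/fl and 106 in csMed1-/- heart (log2 ratio 0.80). On the other side Ecsit, 12925 bases away, was lower, at 131 and 51.5 FPKM (-1.34). Acp5, 17506 bases away, had 0.670 and 4.14 FPKM (2.63). That was the highest ratio among 6 flanking genes in the files, taken in equal number from each side of Cnn1 in order of start. These distances are from the RefSeq annotation of GRCm38.p6.

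Tagln was the other gene of the group that was clearly higher. It encodes transgelin (SM22α), a small actin-binding protein with a calponin homology domain that is among the earliest markers of the smooth muscle lineage, and lies on chromosome 9 from 45929619 to 45936058, minus strand. Tagln had 23.8 FPKM in Med1fl/fl and 89.7 in csMed1-/- heart, a ratio of 3.77 (log2 ratio 1.91). Its ratio was far smaller than that of Cnn1 and ranked 499 from the top. The gene overlaps Pcsk7 on the opposite strand, at 10.8 and 16.7 FPKM. The libraries were directional, but whether the counting used the strand is not given in the sources used here. Cald1, which encodes the actin- and myosin-binding protein caldesmon (chromosome 6, 34598500 to 34775473), had 1.22 and 2.41 FPKM. At a log2 ratio of 0.98 it lay just within 2-fold, and with a pseudocount of 1 its log2 ratio was 0.62. Gene-level FPKM do not separate the long smooth muscle form of caldesmon from the short form of other cells.

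Acta2, Myh11 and Mylk were lower by similar ratios. Other motor and filament genes differed from them. Among the light chains and tropomyosins listed with smooth muscle filaments, Myl9 (log2 ratio 2.61), Myl6 (1.49) and Tpm2 (3.35) were higher by more than 2-fold. Tpm1 (-1.03) was lower by more than 2-fold, and Myl12a, Myl12b and Tpm4 lay within it. Acta2 encodes smooth muscle α-actin (chromosome 19, 34241090 to 34255590) and had 573 FPKM in Med1fl/fl and 310 in csMed1-/- heart (log2 ratio -0.89). Myh11, the smooth muscle myosin heavy chain and the most specific smooth muscle marker of the group (chromosome 16, 14194535 to 14291372), had 3.68 and 1.79 FPKM (-1.04). Mylk, the myosin light chain kinase of smooth muscle (chromosome 16, 34745210 to 35002420), had 3.91 and 1.8 FPKM (-1.11). Relative to Acta2 in the same library, which does not depend on library scaling, Myh11 stood at 0.00642 in Med1fl/fl and 0.00579 in csMed1-/- heart, and Mylk at 0.00683 and 0.00582. By the same measure Tagln went from 0.0416 to 0.289, and Cnn1 from 0.00755 to 2.01. Calponin 1 and transgelin messages were thus higher per unit of α-actin message, while those of the myosin heavy chain and its kinase kept nearly the same proportion to it. The antisense gene E130310I04Rik overlaps Mylk and had 3.81 and 0.900 FPKM. Myh11 and Mylk had low values in both libraries, and with a pseudocount of 1 their log2 ratios became -0.74 and -0.81. Among genes whose higher value lay between 1 and 10 FPKM, as theirs did, 19.8% were lower and 11.9% higher by more than 2-fold. The level of Myh11 was low beside that of Acta2 in both libraries. Both genes share few exact stretches of 50 bases with transcripts of other genes, 0.4% for Myh11 and 0.352% for Acta2. Near matches were not counted, so misplaced reads between related genes were not tested.

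Smtn and Synpo2 had the lowest ratios of the group. Smtn encodes smoothelin, a cytoskeletal protein of contractile smooth muscle (chromosome 11, 3517523 to 3540612), and had 119 FPKM in Med1fl/fl and 41.1 in csMed1-/- heart (log2 ratio -1.53). Synpo2 encodes synaptopodin 2, or myopodin, an actin-bundling protein of the Z-disc and of smooth muscle dense bodies (chromosome 3, 123076519 to 123236149), and had 37.2 and 9.51 FPKM (-1.97). Lmod1, the leiomodin of smooth muscle, which nucleates actin filaments (chromosome 1, 135324807 to 135368065), was low in both libraries, at 0.634 and 0.783 FPKM.

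Myocd encodes myocardin, the cardiac and smooth muscle coactivator of SRF (chromosome 11, 65176561 to 65269989). It had 9.24 FPKM in Med1fl/fl and 4.53 in csMed1-/- heart, a log2 ratio of -1.03. With a pseudocount of 1 its log2 ratio was -0.89, within 2-fold. Whether Myocd and Cnn1 messages come from the same cells was not tested. Srf itself was within 2-fold at 58.0 and 74.3 FPKM (0.36), as were the myocardin-related factors Mkl1 at 6.61 and 8.47 FPKM (0.36) and Mkl2 at 5.77 and 4.4 FPKM (-0.39). Over the list of 13 regulators of SRF and of smooth muscle fate, of which 11 were compared, none was higher and 2 were lower by more than 2-fold, and the median log2 ratio was -0.15. Among all genes 13.6% were higher and 18.0% lower. The 2 lower regulators were Fhl2, a LIM domain protein that binds SRF, at 1748 and 175 FPKM (-3.32), and Hopx, a homeodomain protein that restrains SRF, at 359 and 66.2 FPKM (-2.44). Both are expressed in cardiomyocytes.

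The promoters were searched for CArG boxes, and stretches are printed to show where boxes are present or absent. A promoter window runs from 250 bases before to 50 after a start site of RefSeq (GRCm38.p6), and 7 of the 10 genes have an entry, with Tagln, Myh11 and Myocd missing. The CArG box is CC, a run of 6 bases that are A or T, and GG, and reads the same on both strands. No window of the 7 genes holds an exact box, which 1.63% of all 32851 windows hold. Boxes with at most 1 other base are present in Acta2, Lmod1 and Cald1, 3 of the 8 windows of these genes, and in 21.1% of all windows. So few windows cannot show whether boxes are more or less frequent in these genes than elsewhere. Neither kind of box is present in the Cnn1 window, nor is TATAA, which was searched on both strands and is found in 24.9% of all windows. For Cnn1 the 120 bases that end just before its first annotated exon are shown. The 2 sites of Acta2 are shown with 30 bases each because GENCODE places them inside a first exon, and Lmod1 and Cald1 with the bases around their sites. Capitals mark the boxes.
Cnn1, chr9:22099096-22099215, plus strand: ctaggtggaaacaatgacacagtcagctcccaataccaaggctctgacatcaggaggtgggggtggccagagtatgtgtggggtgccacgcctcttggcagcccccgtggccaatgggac
Acta2, chr19:34255438-34255467, minus strand: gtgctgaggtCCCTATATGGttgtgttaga
Acta2, chr19:34255388-34255417, minus strand: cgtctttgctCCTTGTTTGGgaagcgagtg
Lmod1, chr1:135324609-135324673, plus strand: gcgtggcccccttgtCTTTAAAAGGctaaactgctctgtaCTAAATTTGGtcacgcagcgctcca
Cald1, chr6:34598286-34598325, plus strand: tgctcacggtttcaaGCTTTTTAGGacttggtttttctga

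Exact boxes stand in the windows of 4 of the 16 paralogs with an entry, Acta1, Actc1, Actg1 and Cnn2. They are also found for 4 of 21 other genes of smooth muscle filaments and adhesion, among them Myl9, which encodes the regulatory light chain of smooth muscle myosin and was picked after its values were seen. Myl9 had 102 FPKM in Med1fl/fl and 624 in csMed1-/- heart (log2 ratio 2.61). Each stretch below holds the exact box of a gene in capitals, for comparison with the sites of Acta2 and with Cnn1.
Acta1, chr8:123894824-123894863, minus strand: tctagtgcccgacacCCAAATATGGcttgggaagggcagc
Cnn2, chr10:79988529-79988568, plus strand: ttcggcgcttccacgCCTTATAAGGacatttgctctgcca
Actg1, chr11:120348561-120348600, minus strand: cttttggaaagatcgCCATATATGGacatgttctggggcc
Actc1, chr2:114052898-114052937, minus strand: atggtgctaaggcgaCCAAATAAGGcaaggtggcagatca
Myl9, chr2:156775288-156775327, plus strand: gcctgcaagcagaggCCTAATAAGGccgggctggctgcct
A match describes letters and not occupancy, and a box outside these windows would not be seen.

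**Figure D2:**
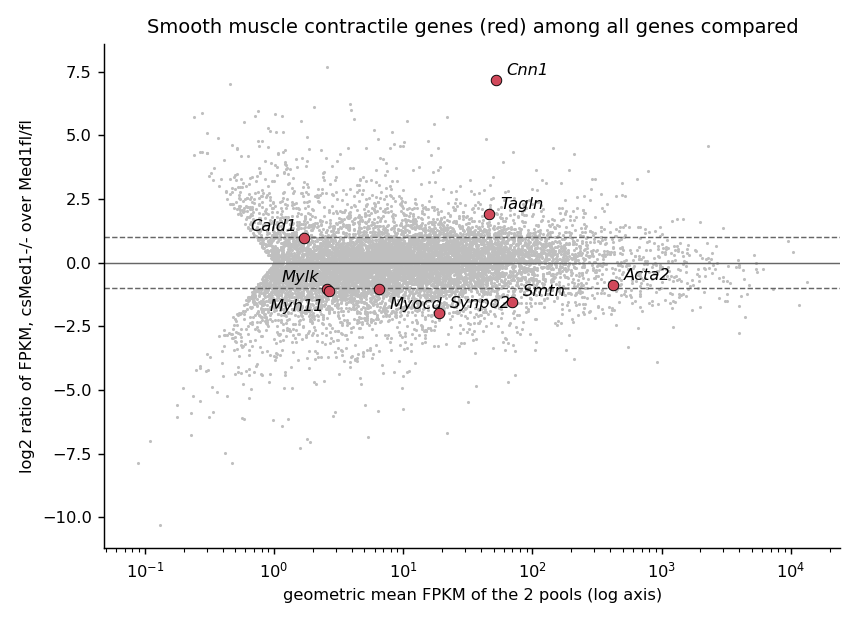
Log2 ratio of FPKM, csMed1-/- over Med1fl/fl, against the geometric mean FPKM of both pools (log axis) for the 10489 genes compared (grey) and 9 smooth muscle contractile genes (red), with dashed lines at 2-fold. Cnn1, at a log2 ratio of 7.17, stands above every other gene of its abundance, Tagln lies in the upper part of the cloud, and the others lie near or below the lower line except Cald1.

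Among the paralogs of Cnn1, Cnn2 had 26.9 FPKM in Med1fl/fl and 67.0 in csMed1-/- heart (log2 ratio 1.32), and Cnn3 had 31.8 and 37.1 FPKM (0.22). In the Med1fl/fl library Cnn1 was thus the lowest calponin per length and in the csMed1-/- library the highest. Cnn3 shares 16.4% of its stretches of 50 bases with other annotated transcripts, most with Gm4815 and Gm17936. Tagln2, the transgelin of non-muscle cells, had 163 and 304 FPKM (0.90), and Tagln3 was low at 0.424 and 0.0235 FPKM.

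The actins had ratios of both signs. Acta1, the skeletal α-actin that is re-expressed in stressed heart, had 207 FPKM in Med1fl/fl and 2033 in csMed1-/- heart (3.30). The cytoplasmic actins Actb, at 422 and 601 FPKM (0.51), and Actg1, at 368 and 497 FPKM (0.43), stayed within 2-fold, as did the enteric smooth muscle actin Actg2 at 2.30 and 1.97 FPKM (-0.22). Actc1, the cardiac α-actin, is listed at 0 in the Med1fl/fl library and at 9189 FPKM in csMed1-/- heart. Since this is a main actin of any heart, the 0 is not taken as a level and no ratio is given. Acta2 was thus lower, and Acta1 higher, in csMed1-/- heart.

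For the myosins, the non-muscle heavy chain Myh10 had 2.95 and 6.69 FPKM (1.18), Myh9 had 22.8 and 29.2 FPKM (0.36), and Myh14 had 24.5 and 13.6 FPKM (-0.85), beside -1.04 for Myh11. Of the myosin light chain kinases Mylk3 and Mylk4 were lower. Mylk3, the cardiac kinase, had 41.5 FPKM in Med1fl/fl and 15 in csMed1-/- heart (-1.47), and Mylk4 had 19.9 and 0.165 FPKM (-6.91), whereas Mylk2, the skeletal muscle kinase, was near 0 at 0.0584 and 0.0712 FPKM. The striated muscle leiomodins were lower too, Lmod2 at 85.5 and 34.3 FPKM (-1.32) and Lmod3 at 11.4 and 1.12 FPKM (-3.35). Smtnl2 was at 25 and 24.4 FPKM (-0.03) and Smtnl1 near 0 at 0.0122 and 0.0218 FPKM. Among the relatives of Synpo2, the synaptopodin gene Synpo had 47.0 and 61.1 FPKM (0.38) and Synpo2l, a Z-disc gene of striated muscle, had 95.8 and 63.4 FPKM (-0.60). Over all paralogs, 19 of 23 were compared, 3 were higher and 4 lower by more than 2-fold, and the median log2 ratio was 0.22. The shares of all genes were 13.6% higher and 18.0% lower.

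**Figure D3:**
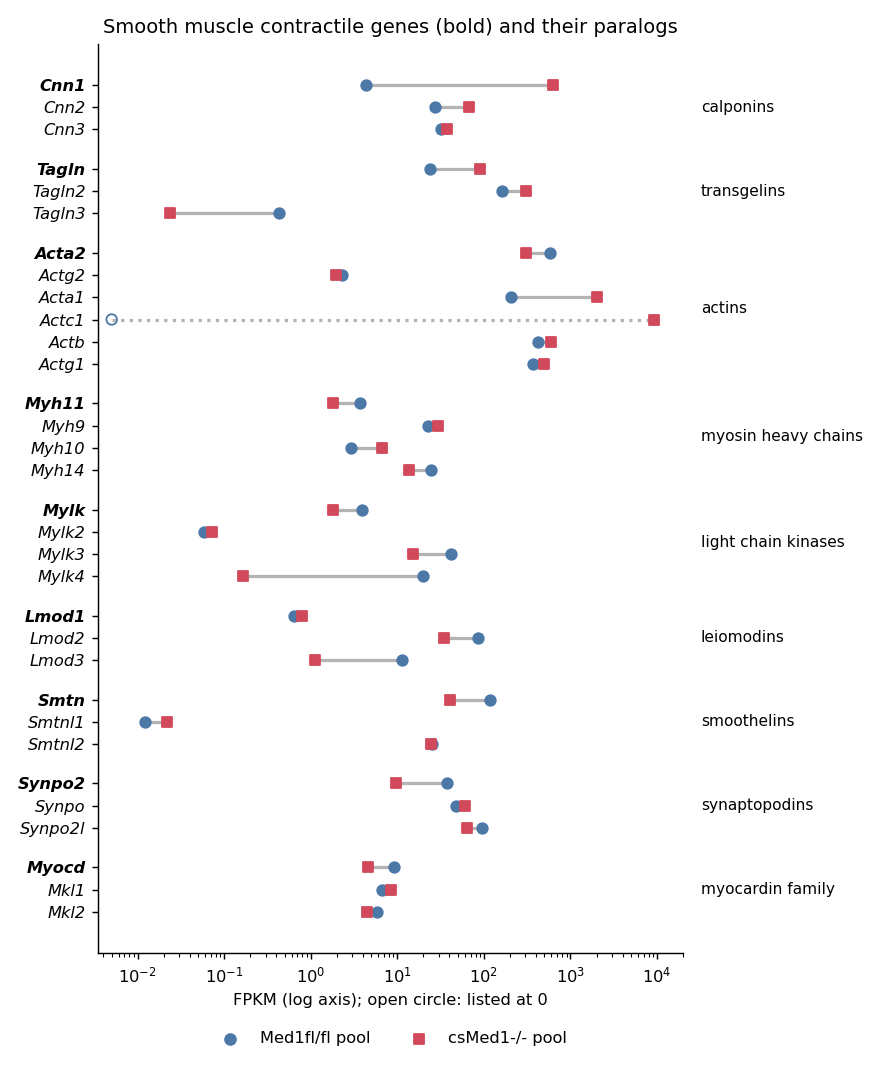
FPKM (log axis) of the smooth muscle contractile genes (bold) and their paralogs, by family, in the Med1fl/fl pool (circles) and the csMed1-/- pool (squares), 1 library per genotype; the open circle marks Actc1, listed at 0. Cnn1 moves from the lowest to the highest calponin, Acta1 moves up beside a lower Acta2, and Mylk3, Mylk4, Lmod2 and Lmod3 move down.

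Other genes of smooth muscle filaments and adhesion were more often higher than lower. Of 24 listed, 22 were compared, 9 were higher and 3 lower by more than 2-fold, and the median log2 ratio was 0.59. Over all genes compared, 13.6% were higher and 18.0% lower. The highest ratios were those of Synm, the intermediate filament protein synemin, at 0.228 and 2.42 FPKM (3.41), of Tpm2, a tropomyosin of smooth and slow skeletal muscle, at 15.6 and 159 FPKM (3.35), and of Pdlim7, an actin-associated PDZ and LIM domain protein, at 98.3 and 959 FPKM (3.29). Among the lower genes were Nexn, an F-actin-binding Z-disc protein, at 4.37 and 1.43 FPKM (-1.61), and Tpm1, the main cardiac tropomyosin, at 10408 and 5085 FPKM (-1.03). Most of these genes are expressed in cardiomyocytes, fibroblasts or both as well as in smooth muscle.

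Markers of the cells that could carry these messages also had ratios of both signs. Their counts stand beside the shares of all genes, 13.6% higher and 18.0% lower by more than 2-fold. Of 14 markers of pericytes and vascular smooth muscle all were compared, 2 were higher and 3 lower by more than 2-fold, and the median log2 ratio was 0.48. Their summed level was 459 FPKM in Med1fl/fl and 620 in csMed1-/- heart. The largest rises in FPKM were those of Itga7, at 108 and 186 FPKM (0.78), and of Mcam. Among these markers Mcam, an adhesion molecule that endothelium also expresses, had 17.5 and 87.2 FPKM (2.32) and Cspg4 (NG2) had 14.2 and 31.4 FPKM (1.14). Vtn had 44.8 and 16.5 FPKM (-1.44), Rgs4 had 7.61 and 3.38 FPKM (-1.17), and Abcc9, a potassium channel subunit also of cardiomyocytes, had 26.2 and 2.44 FPKM (-3.43). Of 16 markers of fibroblasts and myofibroblasts 14 were compared, 8 were higher and 2 lower by more than 2-fold, the median log2 ratio was 1.30, and the summed level went from 576 to 1275 FPKM. Highest among them were Lox at 0.195 and 6.96 FPKM (5.15), Cthrc1 at 0.258 and 5.62 FPKM (4.44) and Postn at 1.57 and 27.4 FPKM (4.13), all genes of matrix-producing myofibroblasts. The lowest were Dpt at 41.3 and 13.1 FPKM (-1.66) and Lum at 8.04 and 3.72 FPKM (-1.11). Other fibroblast genes of the list differed from these, with Tcf21 higher at 10.9 and 25.6 FPKM (1.23). Pdgfra (-0.02) and Dcn (-0.24) lay within 2-fold. A shift in the state of fibroblasts was not tested.

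Of the cardiomyocyte genes that mark the fetal or stressed heart, 9 of 10 were compared, 6 were higher and none lower by more than 2-fold, and the median log2 ratio was 2.89. Their summed level went from 1052 to 15001 FPKM, led by Nppa at 468 and 11114 FPKM (4.57). Of 12 markers of mature cardiomyocytes, 10 were compared, none was higher and 6 were lower by more than 2-fold, and the median of their log2 ratios was -1.33, with Pln lowest (-3.78). Mb is listed at 0 in the Med1fl/fl library, and Myh6 and Myh7 share 1 row that is also listed at 0 there. Of the 10 endothelial markers 2 were higher and 3 lower, with a median of -0.37. Of 9 macrophage markers compared 1 was higher and none was lower, with a median of 0.43. For all these lists the shares over all genes were 13.6% higher and 18.0% lower. The part of any of these cell types in the values of Cnn1 or Tagln was not tested.

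**Figure D4:**
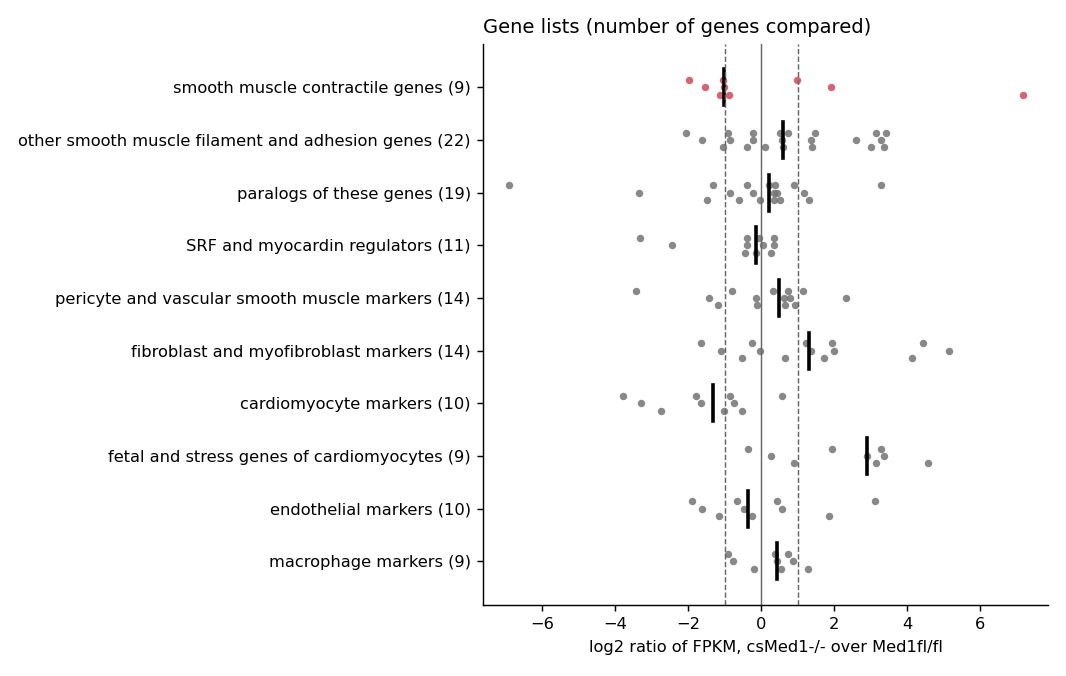
Log2 ratio of FPKM, csMed1-/- over Med1fl/fl, for each gene compared (points) in 10 gene lists, with the median of each list (black bars), the number compared in brackets and dashed lines at 2-fold. The smooth muscle contractile genes (red) have a median of -1.03 and a single far point, Cnn1 at 7.17, while the fetal and stress genes of cardiomyocytes have the highest median, 2.89.

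The order of levels among the smooth muscle contractile genes, which FPKM make comparable per length, differed between the libraries. Cnn1 moved most, from place 6 in Med1fl/fl to place 1 in csMed1-/- heart. Tagln also passed Smtn and Synpo2, and Cald1 passed Myh11 and Mylk. In Med1fl/fl heart Acta2 was highest with 73.8% of the summed 775 FPKM of the 10 genes, followed by Smtn with 15.3%, Synpo2 with 4.8% and Tagln with 3.07%, and Cnn1 held 0.558%. In csMed1-/- heart Cnn1 was highest with 57.4% of 1084 FPKM, followed by Acta2 with 28.6%, Tagln with 8.27% and Smtn with 3.79%. Without Cnn1 the sum went from 771 to 462 FPKM, a ratio of 0.599. The lowest genes, Lmod1, Cald1, Myh11 and Mylk, kept the last 4 places in csMed1-/- heart, and in Med1fl/fl heart they also held the last 4. With 1 library per genotype the spread that would separate neighbours in either order is unknown.

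The genes nearest to Cnn1 by their levels in both libraries, measured as the distance of log2 FPKM over the 2 libraries, were Serpina3n, a secreted inhibitor of proteases, at 8.12 and 238 FPKM (log2 ratio 4.87), Wisp2 at 3.0 and 158 FPKM (5.72), Uchl1, a deubiquitinating enzyme, at 15.6 and 319 FPKM (4.36), Adamtsl2, a matrix protein, at 15.2 and 233 FPKM (3.94), and Slc16a3, a lactate exporter, at 2.61 and 115 FPKM (5.46). The nearest of them, Serpina3n, was still 1.66 log2 units away. None of the other smooth muscle contractile genes was among them, which already follows from their ratios, the highest being 1.91 for Tagln.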

How the data were processed

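Heart RNA was pooled within each genotype, enriched for polyadenylated RNA and sequenced as directional libraries with 50 nt reads from 1 end. Reads were mapped by the authors to mm10 with TopHat2 2.0.8b. They used Cufflinks and Cuffdiff 2.1.1 with the UCSC gene annotation, and the deposited files hold 1 FPKM value per row for 23424 rows in each library. The library scaling within Cuffdiff and the use of strand are not given in the sources used here. FPKM were used as deposited, and the 412 symbols on several rows were summed. Each of the 10 genes stands on 1 row.

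Changes are plain ratios with a 2-fold threshold, and no test was made because each genotype has 1 library. The genes and lists were chosen with earlier results of these data known. Named are the 10 genes, their paralogs, Med1, the 3 highest and 3 lowest genes of each other list or some of them, genes listed at 0 and the 5 genes nearest to Cnn1. Some genes and a list that this rule would name are not reported here. Neighbours of Cnn1, overlapping genes, genes of extreme ratio, Myl9 and the other light chains and tropomyosins beside it were added after the values were seen. Gene positions came from GENCODE M21, and promoters from RefSeq GRCm38.p6. The computation was tested on simulated data. Alternatives were pseudocounts, scalings, filters on low values, fold thresholds and the highest row per symbol, and leaving out Cnn1 was added after seeing the data. Python 3.11.15, numpy 2.4.6, pandas 2.3.3 and matplotlib 3.10.9 were used. The depth of each library is unknown, so no interval is given.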

Additional observations from a re-analysis of the deposited data

How the results depend on the processing

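None of the 9 smooth muscle contractile genes compared changed sign under the scalings and pseudocounts tried, and the log2 ratio of Cnn1 ran from 6.87 to 7.29. A value was taken as moved when it crossed 2-fold or shifted by more than 1.5-fold. The median of the smooth muscle contractile genes lay beside the 2-fold line and moved to -1.0 and -0.81 with pseudocounts of 0.1 and 1, to -0.96 centred on the median, to -0.98 scaled to the 75th percentile, to -0.90 scaled to the summed FPKM, to -0.96 for every gene above 0 in both libraries and to -0.89 with at least 10 FPKM in either. The number of them lower by more than 2-fold fell from 5 to 3 when centred or scaled to the 75th percentile. It was 2 with a pseudocount of 1, with the summed FPKM or with at least 10 FPKM in either, where 5 genes were left, and 0 at 4-fold, where 1 gene, Cnn1, was higher. Cald1 joined the higher genes under the centred, 75th percentile and summed FPKM scalings. Over all genes, 1423 were higher and 1886 lower, and these counts became 2504 and 3182 without a filter on low values, 821 and 885 with at least 10 FPKM in either, 2488 and 3120 at 1.5-fold and 453 and 539 at 4-fold. The 1.5-fold and 4-fold counts differ because the threshold itself was changed. The counts under other filters on low values are over other numbers of genes, 5426 with at least 10 FPKM in either against 10489 in the main comparison. For the remaining shifts the cause was not tested. Of 339 alternative values, 296 stayed in place. Unknown depth limits the low values of Lmod1, Cald1, Myh11 and Mylk most. No paired analysis was possible because each genotype has 1 library.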

Other observations

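A value of 0 in one library beside 100 FPKM or more in the other was found for 6 genes or joint rows at 0 in Med1fl/fl heart and 6 at 0 in csMed1-/- heart. At 0 in Med1fl/fl heart were 3 muscle rows, Actc1 at 9189 FPKM in csMed1-/- heart, Mb, the gene of myoglobin, at 1040 FPKM, and the joint row of the cardiac myosin heavy chain genes Myh6 and Myh7 at 647 FPKM. Actc1, Mb and Myh6 are abundant in postnatal mouse heart, so these zeros are not taken as levels. The other 9 were genes of small or ribosomal RNA, such as Rn45s, at 2056 FPKM in Med1fl/fl and 0 in csMed1-/- heart. Cnn1 was above 0 in both libraries, and none of the 10 smooth muscle contractile genes was listed at 0.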
